A study of Mus musculus with 14 samples.

Results

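The new acetylated regions are stretches of the genome that carried little of the histone mark H3K27ac in control intestinal organoids and clearly more after the RANKL protocol. They were chosen by measured values: of the 55050 regions of 2000 bp in the authors' count table, 532 (0.966%) had a mean of under 5 CPM in the 3 control libraries and of at least 15 CPM in the 3 RANKL libraries. CPM is a region's read count per 1000000 reads of the library over all regions. Because every H3K27ac library took part in the choice, the H3K27ac difference at these regions describes the choice, and no test of it supports a result.

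RANKL organoids had 3 days of 3 µM CHIR99021, an activator of Wnt signalling, with 1.5 mM valproic acid, a histone deacetylase inhibitor, in ENR, a medium with EGF, Noggin and R-spondin 1. They then had 1 day in ENR alone and 100 ng/mL RANKL until harvest on day 6. Control organoids were kept in ENR medium. Both arms came from the small intestinal line of 1 female Lgr5GFPDTR/+ mouse, in 3 independent differentiation experiments, so the contrast is of the whole protocol with ENR, and the spread is between experiments of 1 line. H3K27ac and the transcription factor ONECUT2 were profiled by ChIPmentation, in which Tn5 transposase tags the immunoprecipitated chromatin.

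H3K27ac is the acetylation of lysine 27 of histone H3, a mark of active promoters and of active enhancers, the distal elements through which transcription factors raise the activity of a gene. RANKL is the TNF family cytokine that induces M cells, epithelial cells specialised in taking up antigens and particles from the intestinal lumen for the lymphoid follicles below, and it signals through its receptor RANK to NF-kB factors. ONECUT2 is a DNA-binding factor with a cut domain and a homeodomain.

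Of the 532 new regions, 12 held the start site of a protein-coding gene and 8 that of another gene only. The promoters of the 4 strongest of the 12 are printed because they show the sequence that lies inside newly acetylated chromatin. Each runs from 250 bases before to 50 after the start site, 5′ to 3′ on the gene's strand, from RefSeq (GRCm38.p6). They are Ccdc33 at chr9:58102176-58102475 on the minus strand, Ubd at chr17:37193642-37193941 on the plus strand, H2-M2 at chr17:37483505-37483804 on the minus strand and Tank at chr2:61578307-61578606 on the plus strand. Capitals mark matches, on either strand, to the NF-kB word GGNNTTTCC, the AP-1 word TGANTCA and the SOX word AACAATG. A match is a description of letters and not evidence of binding.
Ccdc33: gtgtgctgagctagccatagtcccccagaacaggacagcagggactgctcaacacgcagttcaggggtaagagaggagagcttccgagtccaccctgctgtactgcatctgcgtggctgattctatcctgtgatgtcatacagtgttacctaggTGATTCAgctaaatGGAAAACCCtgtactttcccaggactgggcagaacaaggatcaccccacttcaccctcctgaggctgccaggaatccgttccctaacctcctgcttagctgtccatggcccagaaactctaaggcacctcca
Ubd: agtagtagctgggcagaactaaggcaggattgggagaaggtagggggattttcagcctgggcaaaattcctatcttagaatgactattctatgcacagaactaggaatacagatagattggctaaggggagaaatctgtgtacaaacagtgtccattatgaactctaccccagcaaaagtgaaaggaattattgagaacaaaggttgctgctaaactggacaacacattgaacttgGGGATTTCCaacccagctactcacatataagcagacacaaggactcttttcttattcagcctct
H2-M2: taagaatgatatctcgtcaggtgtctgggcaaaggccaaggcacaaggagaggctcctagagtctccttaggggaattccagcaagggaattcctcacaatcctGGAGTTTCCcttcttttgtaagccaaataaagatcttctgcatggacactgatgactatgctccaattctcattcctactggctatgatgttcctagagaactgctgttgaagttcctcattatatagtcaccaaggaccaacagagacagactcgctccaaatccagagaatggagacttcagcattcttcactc
Tank: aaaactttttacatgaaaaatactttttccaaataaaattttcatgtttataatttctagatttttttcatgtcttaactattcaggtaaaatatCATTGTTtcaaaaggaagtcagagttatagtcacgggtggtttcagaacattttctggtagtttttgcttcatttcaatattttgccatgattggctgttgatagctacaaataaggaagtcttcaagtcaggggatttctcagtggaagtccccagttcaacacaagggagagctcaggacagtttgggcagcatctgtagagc

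Ubd encodes FAT10, a ubiquitin-like modifier, and its NF-kB word began 14 bases before the start site. H2-M2 encodes a non-classical MHC class I molecule of a multigene family, whose similar copies may share reads. Tank encodes an adaptor that binds TRAF proteins in NF-kB signalling, and its window held a SOX word and no match to GGNNTTTCC. Other forms of the NF-kB site were not searched for in any window, so the lack of a match does not mean the lack of a site. Another start site of Tank lay in a region that was not new, with a mean of 104 CPM in RANKL and 72.4 CPM in control organoids. Ccdc33 had 2 overlapping windows from different start sites, and an AP-1 and an NF-kB word lay close together in both. The genes with a start site in a new region were named after their values were seen.

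Over the 20 genes with a start site in a new region, 4 (Ccdc33, Ubd, H2-M2 and Gm30104), or 20.0%, held the NF-kB word in a promoter window, against 6.62% of all 27025 genes in the promoter table. The AP-1 word was in 3 of the 20 genes (15%, against 8.97% of all) and the SOX word in 3 (15%, against 4.33% of all). The ONECUT words ATCAAT and ATCGAT were in 2 of the 20 genes (10.0%), near the 9.55% of all genes. None of the 20 held the ETS word GAGGAAGT of the SPIB type, the HNF4 word CAAAGTCCA, the CDX word CCATAAA or the CTCF core word CCACNAGG in these windows. The GATA word AGATAA and the TCF/LEF word ATCAAAG were each in 2 genes (10.0%), against 12.7% and 4.29% of all genes. The TCF/LEF and HNF4 words can overlap, and ATCGAT and TGANTCA read the same on both strands. With 20 genes each count is small, and the windows cover only the start sites; the sequence of the other 512 new regions was not analysed here.

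The new regions had a median of 23.9 CPM (quartiles 18.3 and 36.2) in RANKL organoids, against 3.94 CPM (quartiles 3.32 and 4.496) in control organoids. They held 1.57%, 1.60% and 1.60% of all reads in the 3 RANKL libraries, against 0.189%, 0.230% and 0.194% in the 3 control libraries. The gap between the arms was set by the choice, and nothing is read from it. In whole organoids, signal in more cells and more signal per cell cannot be told apart.

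RANKL libraries held 2745451 to 3902301 reads over all regions, and control libraries 5434172 to 9160267. The lower limit of 15 CPM therefore stood for 41 to 59 reads in a RANKL library, and the upper limit of 5 CPM for 27 to 46 reads in a control library. "New" here means below a limit and not absent, since 531 of the 532 regions had at least 1 read in every control library. A control mean under 5 CPM was common, with 18760 of the 55050 regions (34.1%) below it, and 2.84% of those were new. Of the 20134 regions at 15 CPM or more with RANKL, 2.64% were new. The mirror choice, under 5 CPM with RANKL and at least 15 CPM in control organoids, gave 19 regions. The limits do not stand alike in the arms: the median over all regions was 9.53 to 9.99 CPM in RANKL libraries and 7.89 to 8.73 CPM in control libraries. Of all tested regions, 21.0% were called lower with RANKL and 14.8% higher. The counts of 532 and 19 therefore do not measure gain against loss.

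**Figure D1:**
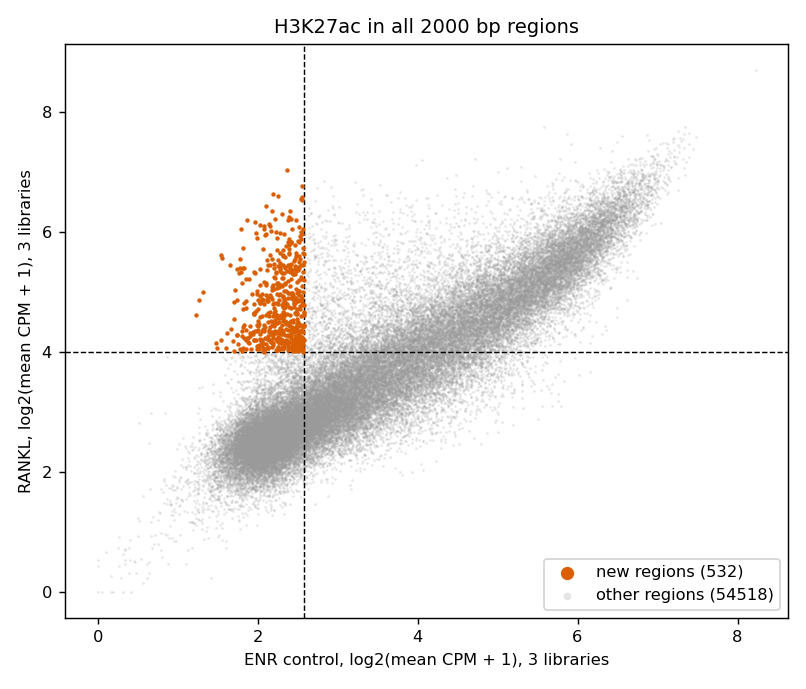
Mean H3K27ac of each region in RANKL organoids (vertical axis) against ENR control organoids (horizontal axis), both as log2(CPM + 1) over 3 libraries; dashed lines mark 15 CPM with RANKL and 5 CPM in control. The 532 new regions (orange) fill the upper left corner, and most of the 54518 other regions (grey) lie along the diagonal.

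All 532 passed edgeR's filter on low counts and all lay past the threshold of its quasi-likelihood test (higher with RANKL, adjusted p under 0.05), as did 14.8% of all tested regions. The choice used the same libraries and fixed this count, so nothing is read from it. Likewise, in all 532 every RANKL library exceeded every control library, which held for 25.0% of all regions. The edgeR log2 fold had a median of 2.59 (quartiles 2.17 and 3.13, range 1.52 to 4.78), against 0.06 over all tested regions, and its standard errors ran between 0.147 and 0.318.

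Most new regions were of modest height: 189 had under 20 CPM with RANKL, 181 had at least 30 CPM and 37 had at least 60 CPM. The spread between experiments had a median of 11.2% of the mean (coefficient of variation) in RANKL libraries and 24.7% in control libraries, where a new region had a median of 19.5 to 39 reads. All 3 RANKL libraries reached 15 CPM at 435 of the new regions, all 3 control libraries stayed under 5 CPM at 293, and both held at 234.

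Just inside the control limit lay regions nearest Parva, Rab42 and Lama3 with 4.998, 4.997 and 4.984 CPM in control organoids, and just outside it regions nearest Rnf144b, Crp and Eif1a with 5.01, 5.02 and 5.02 CPM. Just inside the RANKL limit lay regions nearest Morc3, Zbtb7c and Nrcam with 15.01, 15.05 and 15.17 CPM in RANKL organoids, and just outside it regions nearest Frk, Gbp8 and G6pd2 with 14.98, 14.91 and 14.88 CPM.

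To read the regions in libraries that had no part in their choice, the same limits were applied to 2 experiments and the chosen regions were read in the third. Leaving out experiment 1, 513 regions were chosen, and in that experiment they had a median of 22.9 CPM with RANKL and 3.68 CPM in control. Leaving out experiment 2, 593 were chosen, with 24.6 CPM with RANKL and 4.48 CPM in control. Leaving out experiment 3, 509 were chosen, with 24.6 CPM with RANKL and 3.76 CPM in control. In each left-out experiment the RANKL median was thus above the RANKL limit and the control median below the control limit. RANKL was the higher library at 513 of 513, 592 of 593 and 509 of 509 of them, against 56.1%, 51.2% and 59.5% of all regions. It was at least 3-fold higher at 92.0%, 88.2% and 94.1% of the chosen regions, against 7.02%, 3.53% and 6.84% of all regions.

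Both limits were met in the left-out experiment by 71.3%, 54.5% and 68.6% of the chosen regions, with a mean of 64.8%, against 1.19%, 0.803% and 1.17% of all regions. The control limit was the one missed more often: it was met by 83.0%, 60.9% and 77.4%, and the RANKL limit by 85.4%, 89.2% and 89.2%. The lowest value came with control library 2, which was the deepest and had the highest median over all regions, 8.73 CPM, against 7.91 and 7.89 CPM in the other two control libraries. The part of depth in this was not tested. With 1 library per arm in a left-out experiment, no test was made.

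**Figure D2:**
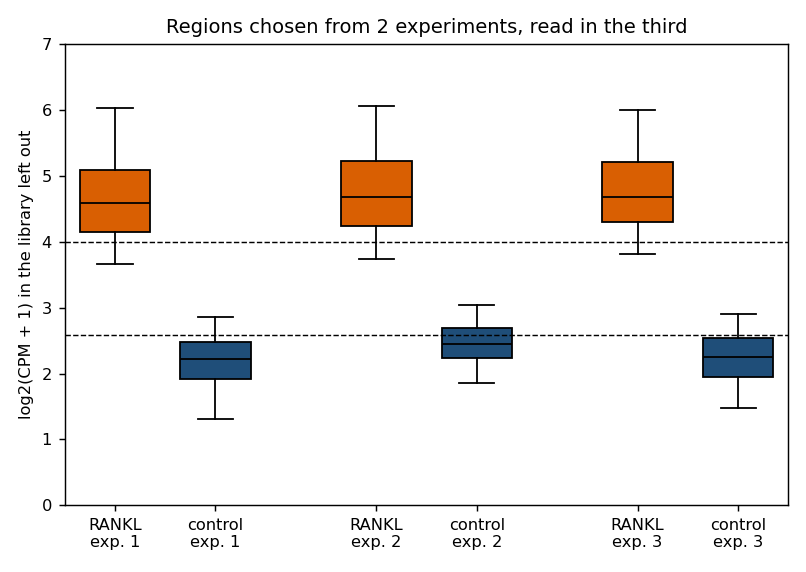
H3K27ac, as log2(CPM + 1), in the library left out, for regions chosen from the other two experiments (513, 593 and 509 regions); orange boxes are RANKL libraries and blue boxes ENR control libraries, with the median, quartiles and 5th to 95th percentile, and dashed lines at 15 and 5 CPM. In each experiment the RANKL box lies above the control box, with medians of 22.9 against 3.68, 24.6 against 4.48 and 24.6 against 3.76 CPM.

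The strongest new region held the start site of Ccdc33, a coiled-coil protein gene (mm10 chr9:58101320-58103320, coordinates as deposited). It had 132, 141 and 117 CPM in RANKL libraries, against 3.68, 5.79 and 3.05 CPM in control libraries, and no other region was assigned to the gene. The arms were far apart in each experiment. Next came a region 12.6 kb from Gjb5, a connexin gene of gap junctions, with 115, 109 and 103 CPM in RANKL libraries and 4.42, 5.90 and 4.30 CPM in control libraries. A region inside Gjb5 itself had 24.0 ± 4.37 CPM with RANKL and 5.59 ± 1.05 CPM in control (SD, n = 3 each), just above the limit for a new region. Another connexin-linked region, 29.9 kb from Gja4, had 29.5, 31.1 and 27.9 CPM in RANKL libraries and 1.29, 4.37 and 3.59 CPM in control libraries. In the Gja4 start-site region the means were 6.95 ± 0.21 CPM with RANKL and 4.84 ± 0.40 CPM in control. Gjb5 and Gja4 were 2 of 24 gap and tight junction genes with a region (8.33%), against 2.39% of all genes. By region, 2 of that list's 85 were new, against 0.966% of all regions. Of the 85, 11 were called higher with RANKL and 17 lower.

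Guca2b encodes uroguanylin, the peptide that activates guanylate cyclase C on the gut epithelium. Its new region lay in the gene span (chr4:119654771-119656771) and had 98.0, 85.5 and 91.2 CPM in RANKL libraries, against 3.31, 7.21 and 4.12 CPM in control libraries. Control library 2 alone was above the 5 CPM limit there, and the arms stayed far apart.

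Inside Ptprr, a receptor-type tyrosine phosphatase that acts on MAP kinases, the new region (chr10:116103132-116105132) had 99.8, 90.1 and 94.6 CPM in RANKL libraries and 4.97, 4.26 and 5.38 CPM in control libraries. It was not alone: a second region in the gene had 52.1 ± 5.70 CPM with RANKL and 5.10 ± 0.25 CPM in control (SD, n = 3 each), just outside the choice, while a further one had 55.7 ± 3.79 CPM with RANKL and 51.4 ± 4.14 CPM in control. New, gained and steady H3K27ac thus stood within 1 gene.

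Gpr132 encodes a G protein-coupled receptor of lymphocytes and macrophages, and the region inside it (chr12:112864763-112866763) had 92.5, 97.2 and 89.2 CPM in RANKL libraries against 3.13, 4.69 and 6.63 CPM in control libraries. A second new region lay 0.5 kb from the gene, with 15.9 ± 1.13 CPM with RANKL and 4.01 ± 1.50 CPM in control (SD, n = 3 each). Cd200r2, of the family of receptors for the inhibitory ligand CD200, held a region (chr16:44908260-44910260) with 90.0, 83.3 and 85.3 CPM in RANKL libraries against 2.58, 3.93 and 3.41 CPM in control libraries. The region 3.80 kb from Rac2, a small GTPase of haematopoietic cells, had 88.1, 75.02 and 70.7 CPM in RANKL libraries against 2.94, 3.71 and 5.199 CPM in control libraries. At these 4 regions all RANKL libraries lay above all control libraries, which held at all 532 new regions and at 25.0% of all regions. It does not set these 4 apart.

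Regions of the leukocyte marker list were looked at beside them. Of its 14 genes, 8 had a region and 0 had a new one, and Cd3e, Cd68, Cd79a, Cd8a and Lyz2 were among those with no region. The list's summed H3K27ac was 176 to 186 CPM in RANKL libraries and 137 to 157 CPM in control libraries. The part of other cells in the new regions was not tested.

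The remaining regions of the top 12 lay 51.2 kb from the endosome tether gene Eea1, 88.6 kb from Btbd11, 105 kb from Spata16, 212 kb from the casein kinase gene Csnk1g3 and inside the inositol phosphatase gene Inpp5b. Each had 70.3 to 105 CPM in the RANKL libraries, against 1.79 to 5.15 CPM in the control libraries. At Inpp5b the start-site region had 14.7 ± 3.27 CPM in RANKL and 16.2 ± 3.29 CPM in control organoids (SD, n = 3 each; log2 fold -0.19, SE 0.19).

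**Figure D3:**
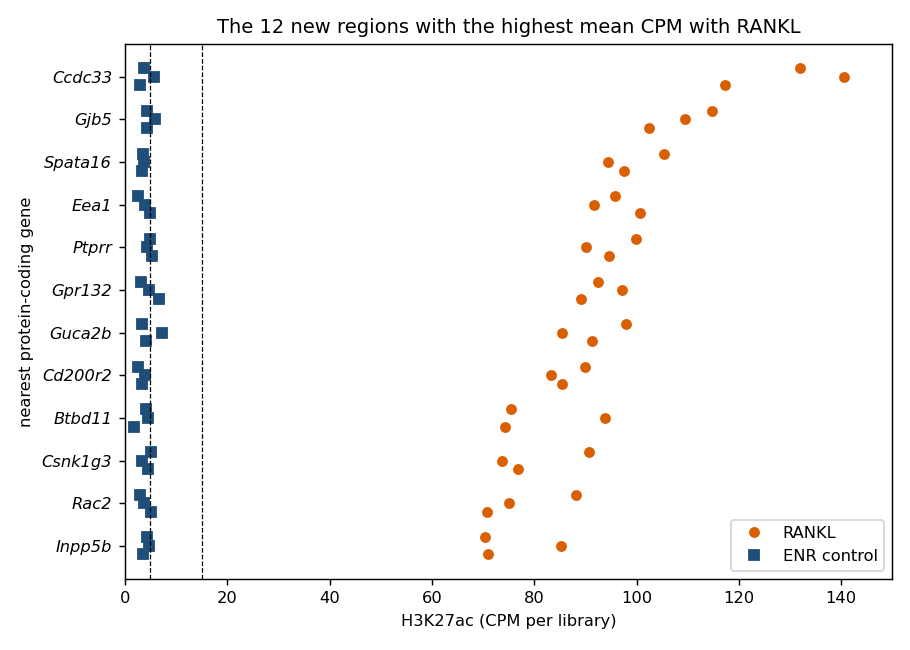
H3K27ac in CPM in each of the 3 RANKL libraries (orange circles) and 3 ENR control libraries (blue squares) at the 12 new regions with the highest mean with RANKL, named by the nearest protein-coding gene; the dashed lines are the limits of 5 and 15 CPM. All RANKL points lie between 70.3 and 141 CPM and all control points at 7.21 CPM or lower.

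New regions were seldom at start sites. Of the 532, 20 (3.76%) held any annotated start site, against 37.3% of the 19602 regions that had at least 5 CPM in control and at least 15 CPM with RANKL (called acetylated in both), 4.71% of the 18228 regions under both limits (weak in both) and 17.9% of all regions. A protein-coding start site was in 2.26% of them, 36.5% lay elsewhere inside a protein-coding gene, 40.6% lay between genes within 100 kb of one and 19.2% lay farther away. Exons and introns were not resolved. The median distance to the nearest protein-coding start site was 69.2 kb, against 11.4 kb for regions acetylated in both, 95.9 kb for regions weak in both and 34.9 kb for all regions. In position the new regions thus stood nearer to the weak regions than to the acetylated ones. At matched height with RANKL the difference was also seen: new regions of 30 to 60 CPM held a start site in 2.78% of cases and other regions of that height in 45.7%.

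They were mostly isolated from each other. At a gap of up to 20 kb, 476 of the 532 stood alone and 56 fell into 26 clusters, the largest of 4 regions inside Zbtb7c. The nearest other region of any kind lay at a median of 14.1 kb, and it was itself under 5 CPM in control organoids in 53.2% of cases, against 34.1% of all regions. That share includes neighbours that were themselves new, which were under 5 CPM by the choice. For the 478 whose neighbour was not new, the neighbour had a median log2 fold of 0.57. New regions made up 0.154% of the regions of chromosome 19 (3 of 1944) and between 0.541% (chromosome X) and 1.30% (chromosome 16) of those of the other chromosomes apart from Y, which had 4 regions and 0 new ones.

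ONECUT2 was measured in separate libraries that the choice did not use. In the authors' deposited table of ONECUT2 sites that differ between the arms (7268 sites, FDR up to 0.0496), 65 of the 532 new regions overlapped a site, or 12.2%, against 8.59% of regions acetylated in both, 2.12% of regions weak in both and 5.32% of all regions. These 65 sites were 0.894% of the listed sites. By this list alone it is not known whether the other 467 new regions had ONECUT2, since sites that did not differ are not in it. Regions are not replicates, so no test of these shares was made.

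**Figure D4:**
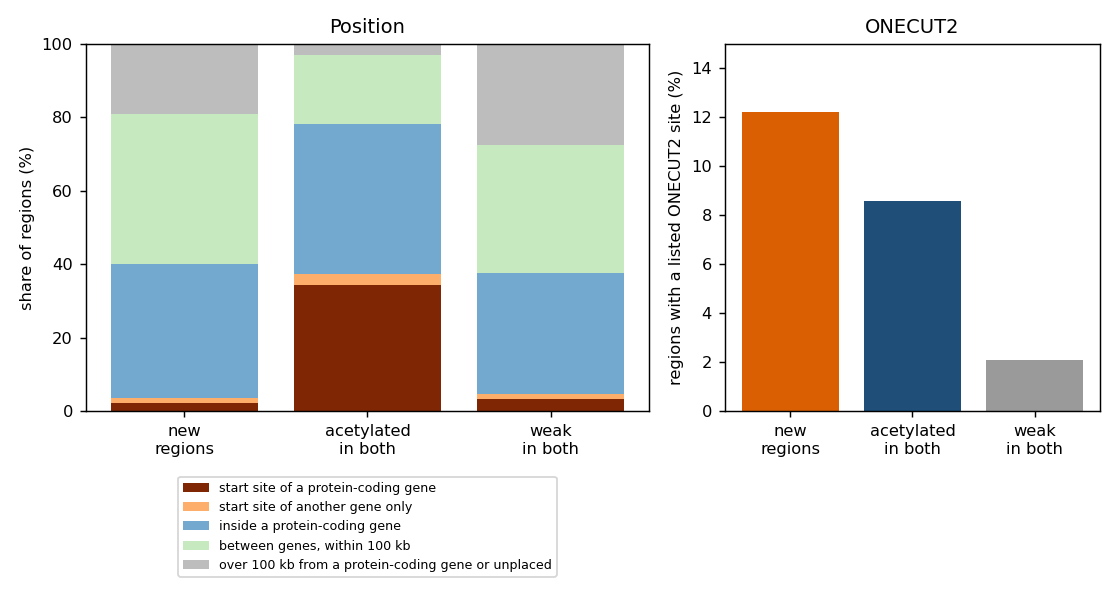
Left, share of regions by position for the 532 new regions, the 19602 regions acetylated in both arms and the 18228 weak in both; right, share of each class that overlaps a site of the authors' ONECUT2 table. Start sites of protein-coding genes make up 2.26% of new regions, and 12.2% of new regions hold a listed ONECUT2 site against 8.59% and 2.12% of the other two classes.

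At these sites the listed ONECUT2 fold was larger than at the sites of the other classes. In the authors' deposited table the log2 fold of RANKL over control had a median of 3.38 at the new regions (10.4-fold; range 1.99 to 5.55), against 1.70 at regions acetylated in both, 2.15 at regions weak in both and 1.86 over all 7268 sites. All 65 were higher with RANKL in the authors' deposited table, as were 7261 of all 7268 listed sites. Ranked by fold over the 7268 sites of the authors' deposited table, the 65 had a median rank of 271. The median mean read count per site in the authors' deposited table was 30.4 with RANKL and 2.25 in control at the new regions, against 25.9 with RANKL and 6.16 in control over all listed sites. The new regions thus differed from the list as a whole more in the low control reads than in the RANKL reads. Only sites that differ are listed, so a site with few control reads could enter only with a large fold. How much of the fold's size this fixed was not tested. A control log2 mean of 0 or lower stood at 5 of the 65, against 5 of 1684 at regions acetylated in both and 6 of 386 at weak ones. The listed fold is the authors' estimate and not the ratio of the mean reads.

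New regions that reached more H3K27ac held a listed site more often, at 7.41% of those of 15 to 20 CPM, 13.6% of 20 to 30 CPM, 16.0% of 30 to 60 CPM and 16.2% of those above. Other regions of the same heights held one at 6.86%, 8.23%, 8.995% and 10.9%. The median ONECUT2 log2 fold from the authors' deposited table did not follow height in the new regions, at 3.65, 3.40, 3.30 and 3.34, against 1.66, 1.73, 1.70 and 1.70 in other regions. Without regions that hold a start site, the shares were 12.5% of new regions, 9.27% of regions acetylated in both and 2.15% of regions weak in both.

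**Figure D5:**
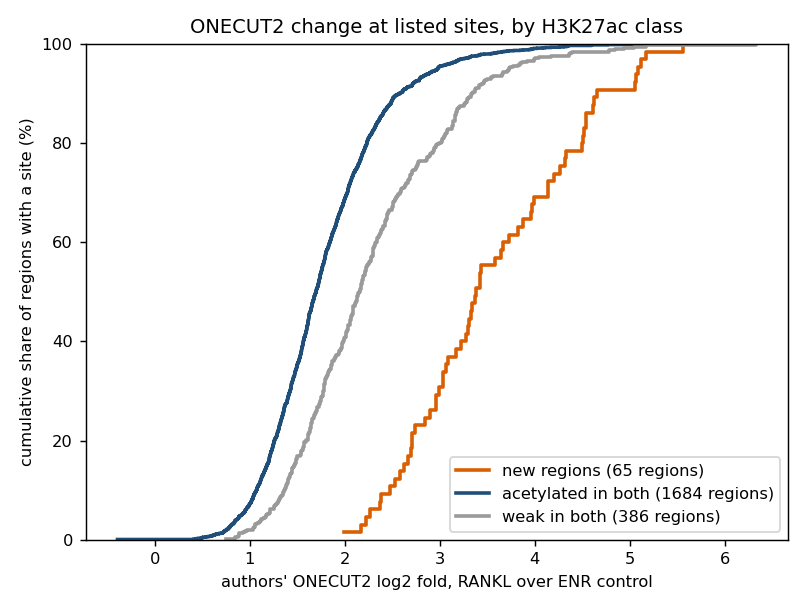
Cumulative share of regions with a listed ONECUT2 site by the authors' ONECUT2 log2 fold of RANKL over ENR control, for 65 new regions (orange), 1684 regions acetylated in both arms (blue) and 386 weak in both (grey). The new regions' curve lies to the right, with a median of 3.38 against 1.70 and 2.15.

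The largest ONECUT2 change at a new region was inside Cntnap2, a neurexin family adhesion gene (chr6:45883630-45885630). In the authors' deposited table its site had 98.0 mean reads with RANKL and 1.33 in control. The listed log2 fold was 5.55, which is not the ratio of these reads. H3K27ac in that region was 36.4, 35.0 and 37.7 CPM in RANKL libraries and 2.58, 3.49 and 1.79 CPM in control libraries, so both signals were low in control organoids. A region 7.94 kb from the potassium channel gene Kcna1 had the most ONECUT2 reads of the 8 largest changes, 176 with RANKL and 6.28 in control in the authors' deposited table. H3K27ac there was 45.2, 51.0 and 52.5 CPM in RANKL libraries and 4.78, 5.79 and 2.15 CPM in control libraries.

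At Ccm2l, a gene related to the cerebral cavernous malformation gene Ccm2, the new region lay 0.8 kb from the gene and had 69.2, 51.0 and 54.8 CPM in RANKL libraries against 2.76, 6.33 and 5.38 CPM in control libraries. Its log2 fold in the authors' deposited table was 5.05. Regions inside Slc35f4 and 25.1 kb from Zc3h15 had log2 folds of 5.07 and 5.08 in the authors' deposited table, with H3K27ac means of 46.4 and 48.0 CPM in RANKL organoids against 1.95 and 1.91 CPM in control organoids. Both had lower control H3K27ac than the median new region. The 3 others of the 8 lay over 100 kb from Hs6st1, 75.1 kb from Glrp1 and inside Mrpl45. Their log2 folds were 5.17, 5.12 and 4.66 in the authors' deposited table. Of the promoters printed above, only the region of Ubd overlapped a listed site, with a log2 fold of 3.58 in the authors' deposited table.

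Of the new regions, 428 (80.5%) lay within 100 kb of a protein-coding gene and were assigned to the nearest one, which need not be the gene they act on. They fell to 383 of the 16032 genes with any region (2.39%): 344 genes had 1, 35 had 2 and 4 (Zbtb7c, Eea1, Megf6 and Xylt1) had 3 or more. For 33 of the genes every assigned region was new. Xylt1, which encodes the xylosyltransferase that starts glycosaminoglycan chains, held 3 new regions with 63.4 ± 0.77, 41.8 ± 5.75 and 20.8 ± 2.08 CPM in RANKL organoids, against 3.70 ± 0.76, 3.85 ± 0.80 and 4.83 ± 0.83 CPM in control organoids (SD, n = 3 each). Megf6, an EGF-repeat protein gene, held 3 of 28.4 ± 0.69, 19.3 ± 3.05 and 15.8 ± 4.09 CPM in RANKL organoids, against 3.14 ± 1.46, 4.55 ± 1.74 and 3.96 ± 1.68 CPM in control organoids. Zbtb7c, a zinc finger gene, had 5 new regions, and Eea1 had 3.

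The other regions of the 383 genes were 1915 in number, and 26.0% of them were called higher with RANKL (median log2 fold 0.29). Over all genes it was 13.5% of the 47067 assigned regions that were not new (median -0.01). A start-site region existed for 140 of the 383 genes, with a median of 24.5 CPM in RANKL and 30.8 CPM in control organoids and a median log2 fold of -0.31, against -0.40 over start-site regions of all genes. Of the 140, 95 had at least 15 CPM in control organoids already, and 13 (9.29%) were called higher with RANKL, against 4.601% of all start-site regions. Lower calls numbered 63 (45.0%), against 56.5% of all start-site regions and 21.0% of all tested regions.

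Among M cell genes, 5 of the 27 with a region had a new one (18.5%), against 2.39% of all genes with a region. By region, 7 of the list's 99 were new, against 0.966% of all regions. Here and in the lists below, the gene shares do not account for how many regions each gene has. Sox8, a transcription factor gene needed for M cell maturation, had a region 27.5 kb away with 63.4, 79.9 and 75.6 CPM in RANKL libraries against 3.86, 5.57 and 3.23 CPM in control libraries. The region in the gene itself had 5.90 ± 0.71 CPM with RANKL and 2.84 ± 0.78 CPM in control (SD, n = 3 each), so with RANKL the distal region held most of the H3K27ac of the pair, and in control organoids both were low. Esrrg, a nuclear receptor gene linked to M cells, had new regions 54.0 and 20.8 kb away with 22.0 ± 0.97 and 17.9 ± 2.39 CPM in RANKL organoids against 4.00 ± 0.93 and 3.80 ± 1.95 CPM in control organoids. Its start-site region had 6.18 ± 1.75 CPM with RANKL and 6.93 ± 0.90 CPM in control.

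Tnfrsf11b encodes osteoprotegerin, the soluble decoy receptor of RANKL. Its new region, 38.8 kb away, had 14.2, 20.3 and 15.4 CPM in RANKL libraries against 3.86, 5.02 and 4.48 CPM in control libraries, near the RANKL limit. Stronger regions of the locus were not new, with 48.7 ± 6.17 CPM in RANKL and 23.3 ± 1.80 CPM in control organoids (SD, n = 3 each) at the highest of them. Fabp5, a fatty acid binding protein gene, had 2 new regions, 23.4 and 14.4 kb away. They had 16.8 ± 3.27 and 15.4 ± 0.79 CPM with RANKL against 4.57 ± 1.33 and 3.21 ± 0.57 CPM in control. The region inside Fabp5 had 12.5 ± 2.93 CPM with RANKL and 13.8 ± 2.27 CPM in control (log2 fold -0.22, SE 0.21). The strongest region assigned to Fabp5, 75.2 kb away, had 63.0 ± 3.96 CPM with RANKL and 10.1 ± 1.88 CPM in control, above the control limit. The chemokine gene Ccl6 had 1 new region, 17.1 kb away. It had 12.4, 20.3 and 23.1 CPM in RANKL libraries and 3.86, 4.80 and 3.59 CPM in control libraries, and RANKL library 1 was below 15 CPM there. A new region of 16.9 CPM with RANKL lay equally near Prnp and the read-through gene Prn and was counted for Prn.

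In the list of ONECUT and HNF genes, 2 of 13 (15.4%) had a new region, against 2.39% of all genes. The list held 88 regions, of which 2 were new, against 0.966% of all regions. Foxa2, a pioneer factor gene of endodermal tissues, had one 32.6 kb away with 50.3, 42.4 and 45.1 CPM in RANKL libraries against 3.86, 3.17 and 3.59 CPM in control libraries. Its start-site region had 37.5 ± 8.51 CPM with RANKL and 50.6 ± 0.99 CPM in control (SD, n = 3 each; log2 fold -0.54, SE 0.12), in the other direction. Hnf4g, an enterocyte factor gene, had a weaker new region 53.3 kb away, with 16.8 ± 3.67 CPM in RANKL and 4.20 ± 0.86 CPM in control organoids.

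Of 15 tuft cell genes with a region, 2 (13.3%) had a new one, against 2.39% of all genes. By region, 2 of the list's 50 were new. Gfi1b, a transcriptional repressor gene expressed in tuft cells, had 39.7, 42.7 and 38.7 CPM in RANKL libraries against 4.23, 4.69 and 4.30 CPM in control libraries in a region 0.8 kb from the gene. Kctd12 had 39.7, 46.1 and 36.1 CPM in RANKL libraries against 4.23, 5.79 and 3.59 CPM in control libraries 17.2 kb away, and its start-site region had 14.2 ± 0.47 CPM with RANKL and 4.90 ± 2.27 CPM in control (SD, n = 3 each). Of 10 distal small intestine genes, Guca2b and Slc10a2, the ileal bile acid transporter gene, had one (20.0%), and 2 of that list's 34 regions were new. The Slc10a2 region lay inside the gene and had 39.0, 30.1 and 32.0 CPM in RANKL libraries against 3.31, 4.15 and 4.30 CPM in control libraries.

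Pglyrp2 encodes a peptidoglycan amidase and was the one pattern recognition gene of 19 with a new region. It had a pair, 0.2 and 9.0 kb away, of 61.5 ± 4.03 and 53.8 ± 0.84 CPM in RANKL organoids against 3.32 ± 1.17 and 4.11 ± 0.22 CPM in control organoids (SD, n = 3 each), and no other region. Rbpj, the DNA-binding partner of Notch, was the one of 17 Notch genes with a new region. It had 2, 45.1 and 63.9 kb away, of 25.8 and 15.5 CPM in RANKL organoids against 4.27 and 4.72 CPM in control organoids. Its start-site region had 55.7 ± 6.21 CPM with RANKL and 62.0 ± 3.38 CPM in control. The ETS gene Etv6 (1 of 22) had a new region 43.6 kb away. It held 8.74, 21.2 and 21.3 CPM in RANKL libraries against 4.601, 3.82 and 4.30 CPM in control libraries. RANKL library 1 was well below the other two there, so its mean above 15 CPM rests on those. The region overlapped a site with a log2 fold of 4.61 in the authors' deposited table. The start-site region of Etv6 had 140 ± 6.63 CPM with RANKL and 125 ± 13.7 CPM in control. The neuronal and enteroendocrine gene Syt1 (1 of 17 enteroendocrine genes) held a new region with 28.4 ± 1.31 CPM with RANKL and 3.01 ± 1.34 CPM in control. A stronger region inside Syt1, above the control limit, had 108 ± 6.73 CPM with RANKL and 6.55 ± 1.13 CPM in control. In the list of TNF receptor and ligand genes, which does not hold Tnfrsf11b, the ectodysplasin receptor gene Edar was 1 of 24. In the list of interferon and antigen presentation genes, which does not hold H2-M2, the MHC class II chaperone gene Cd74 was 1 of 25.

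Of the 11 endothelial markers, which all had regions, 3 (27.3%) had a new one, against 2.39% of all genes. The region inside Tek, the angiopoietin receptor gene, had 48.8, 54.1 and 51.3 CPM in RANKL libraries against 2.94, 5.35 and 2.87 CPM in control libraries. That of the tight junction gene Cldn5 lay 42.1 kb away, with means of 41.7 CPM in RANKL and 4.67 CPM in control organoids. A region 7.70 kb from Cldn5 had 5.47 CPM with RANKL and 4.39 CPM in control. The new region of the VEGF receptor gene Flt1 lay 59.7 kb away. It had 16.0, 14.5 and 21.8 CPM in RANKL libraries against 4.23, 5.02 and 3.05 CPM in control libraries. The regions inside Flt1 had means of 4.97 to 7.57 CPM with RANKL and 3.67 to 4.92 CPM in control. By region, 3 of the list's 43 were new. The list's summed H3K27ac was 582 to 600 CPM in RANKL libraries and 489 to 510 CPM in control libraries, and that of the mesenchymal list, with 0 of 10 genes at a new region, was 336 to 354 CPM in RANKL and 270 to 287 CPM in control libraries. The 12 intestinal epithelial markers all had regions, none of them new, with 2474 to 2548 CPM in RANKL and 2636 to 2845 CPM in control libraries. The part of endothelial cells in these 3 regions was not tested.

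No gene had a new region in the lists of AP-1 and NFAT genes (16 with a region), RANK and noncanonical NF-kB genes (13), canonical NF-kB genes (15), enterocyte genes (28), stem cell and Wnt target genes (20), fetal and YAP target genes (20), goblet cell genes (15), Paneth cell genes (11) or housekeeping genes (13). With 11 to 28 genes a list, and new regions at 2.39% of all genes, a count of 0 does not set a list apart. The counts above 0 in the other lists are small as well, and no test of them was made.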

How the data were processed

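H3K27ac and ONECUT2 were each profiled by ChIPmentation in 3 RANKL and 3 ENR control libraries; the 2 input libraries were not analysed here. The authors deposited raw read counts for 55050 H3K27ac regions, 53 of them on unplaced scaffolds, and a second table of the same regions that was not used. The authors' ONECUT2 table, for which the submitters' processing notes name DiffBind, gives log2 mean reads per condition, a log2 fold and p-values with an FDR per site, per the file headers, and no values per library. The same notes name mm10 as the build. The sources used here give no aligner, peak caller or handling of duplicates, and no genome was used. Coordinates are as deposited; whether region starts count from 0 is not given.

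The test on counts was the quasi-likelihood test of edgeR 4.0.16 in R 4.3.3, with TMM, filterByExpr (54765 regions kept) and Benjamini-Hochberg adjustment over all tested regions. The standard error of a log2 fold is its size over the square root of F. The same test was also run on simulated counts with a shared dispersion and few changed regions. That setting is unlike these data, so the run does not check the calls. CPM used the column sum. Start sites and promoters came from RefSeq, genes from spans of 21900 protein-coding genes (GRCm38.p6), with ties given to the nearer start site. An overlap of 1 bp with a listed site counted. Replicates differed beyond sampling noise (chi-square per degree of freedom 1.79 to 2.06).

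The members and gene lists were chosen with earlier results of these data known. Named are the 12 highest new regions with RANKL, the 8 largest ONECUT2 folds, list genes with a new region, genes with 3 or more and regions at the limits. Libraries of both arms carry experiment numbers, per the labels, and were paired by them, with correlations of their deviations of -0.027 to 0.014. Alternatives were other limits, other scaling, no filter, DESeq2 1.42.0, the experiment as block, other overlaps, 10 kb for genes and leaving out each library.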

Additional observations from a re-analysis of the deposited data

How the results depend on the processing

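The number of new regions depended on the limits: it was 81 with a control limit of 3 CPM, 181 with a RANKL limit of 30 CPM, 234 with every library held to its limit, and 494 to 591 leaving out 1 library at a time; with TMM-normalised library sizes it was 480. In the left-out experiment 2 the share meeting both limits was 54.5%, against a mean of 64.8%. Genes with a new region numbered 254 at 10 kb, with 279 regions assigned, against 383 at 100 kb. The count of calls was 532 under every scaling, filter, tool and left-out library run and with the experiment as replicate block, and the median log2 fold was 2.56 to 2.69 (2.61 with the block). Since the choice fixed these calls, they say nothing about stability. The ONECUT2 share was 12.03% to 13.9% over the other overlaps and FDR limit and 12.1% to 16.2% over the other limits and left-out libraries. At 19.5 to 39 reads per new region in a control library, counting error alone can move a region across the 5 CPM limit.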
